A study of Mus musculus with 2 samples.

Results

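The respiratory chain was followed through the cell types of the mouse testis, gene by gene. The members were all features whose symbols belong to the mitochondrially encoded subunits or to the Nduf, Cox4 to Cox8, Uqcr, Atp5 and Sdh families, together with the cytochromes Cycs and Cyct, and pseudogenes were left out. This gave 108 of 31053 features, 13 encoded by the mitochondrial genome and 95 by the nucleus. The nuclear set held 36 subunits of complex I, 8 assembly factors of complex I, 4 subunits of complex II, 8 of complex III, 18 of complex IV, 17 features of complex V (ATP synthase), Ndufa4 with Ndufa4l2, and both cytochrome c genes. Atp5o was listed under a pair of identifiers, and the copy ENSMUSG00000116933 had 0 UMIs in every cell class.

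Testis cells of mice aged 8 months were profiled by droplet single-cell RNA sequencing (10x Genomics), with 1 library labelled wild type (WT) and 1 labelled Igf2bp1 KO (KO). IGF2BP1 is an RNA-binding protein, and the study asked about its role in spermatogenesis with age. The design text calls the mutant a conditional knockout, and the labels name neither the Cre line nor the deleted exons nor the strain. The number of mice per library is not certain from that wording. Each library therefore counts as 1 replicate, no p-value is given, and the intervals below cover counting error only.

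The WT library had 17362 barcodes and 121257944 unique molecular identifiers (UMIs, each the tag of 1 captured RNA molecule), and the KO library had 17968 barcodes and 98033324 UMIs. The classes used here came from clustering without any member or other mitochondrial gene. Named classes held 5206 WT and 3806 KO barcodes, whereas 10502 and 7450 barcodes resembled empty droplets and 147 and 5600 carried mixed markers and were not used. The same 106 barcode sequences occurred in both libraries. At least 8 of 13 spermatogonial, 10 of 13 late spermatocyte, 9 of 12 round spermatid, 10 of 12 elongating spermatid and 14 of 16 Sertoli markers were highest in the class named after them in each library. For early spermatocytes 8 of 13 were in WT and 6 of 13 in KO, where 8 were detected. The same markers named the clusters, so these counts are no independent check of the names. A pair of sub-clusters scored best for early spermatocyte markers (2.60 and 1.47). The only list marker among their leading genes was a spermatogonial one, Stra8, a gene of germ cells about to enter meiosis. The pair could therefore not be given a class name and is pooled as Stra8-led cells. Stra8 was also among the leading genes of sub-clusters named spermatogonia. Igf2bp1 itself had 51 UMIs (66.6 per 1000000 UMIs, hereafter CPM) in WT spermatogonia and 13 UMIs (28.5 CPM) in KO spermatogonia, and 26 against 6 UMIs in Stra8-led cells. The exons those UMIs came from are not recorded, so this count is only a partial check of the deletion.

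Oxidative phosphorylation runs through 5 complexes in the inner mitochondrial membrane. Complexes I, III, IV and V mix subunits from the mitochondrial and the nuclear genome, while complex II, which is also the succinate dehydrogenase of the citric acid cycle, is built from nuclear genes alone. Cytochrome c carries electrons from complex III to complex IV. Male germ cells are known for testis forms of several of these proteins, among them cytochrome c (CYCT) and the complex IV subunits COX6B2, COX7B2 and COX8C. X-linked genes are silenced during the pachytene stage of male meiosis, and several testis forms are autosomal counterparts of genes with broader expression.

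The 13 mitochondrially encoded genes made up a large share of all UMIs in early germ cells and a small one in spermatids. They took 7.08% of UMIs in WT spermatogonia (115 cells) and 8.02% in KO spermatogonia (73 cells), and 8.12% and 8.38% in Stra8-led cells (95 and 67 cells). In late spermatocytes the share was 1.52% in WT (95% interval 1.519 to 1.527, 1431 cells) and 1.84% in KO (1.828 to 1.848, 438 cells). Round spermatids had 0.389% in WT (828 cells) and 0.584% in KO (323 cells), and elongating spermatids 0.248% (1810 cells) and 0.405% (895 cells). Each later stage lay below the one before it in both libraries, from Stra8-led cells onward, and the 37 WT and 9 KO early spermatocytes, at 5.87% and 4.56%, lay between. Classes far apart in depth entered this series: the median cell held 6575 and 5052 UMIs in spermatogonia against 24244 and 18745 in round spermatids.

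The 95 nuclear members did not follow that course. Their summed share was 2.95% and 2.78% in spermatogonia (WT and KO), 3.42% and 3.50% in late spermatocytes, and 2.66% and 2.77% in round spermatids. It was far lower in elongating spermatids, at 0.712% and 0.782%. The ratio of mitochondrially to nuclear encoded UMIs was therefore 2.40 in WT and 2.89 in KO spermatogonia, 0.446 and 0.525 in late spermatocytes, and 0.146 and 0.211 in round spermatids. It was 0.348 and 0.518 in elongating spermatids, above round spermatids, since between these stages the nuclear share differed by more than the mitochondrially encoded one.

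**Figure D1:**
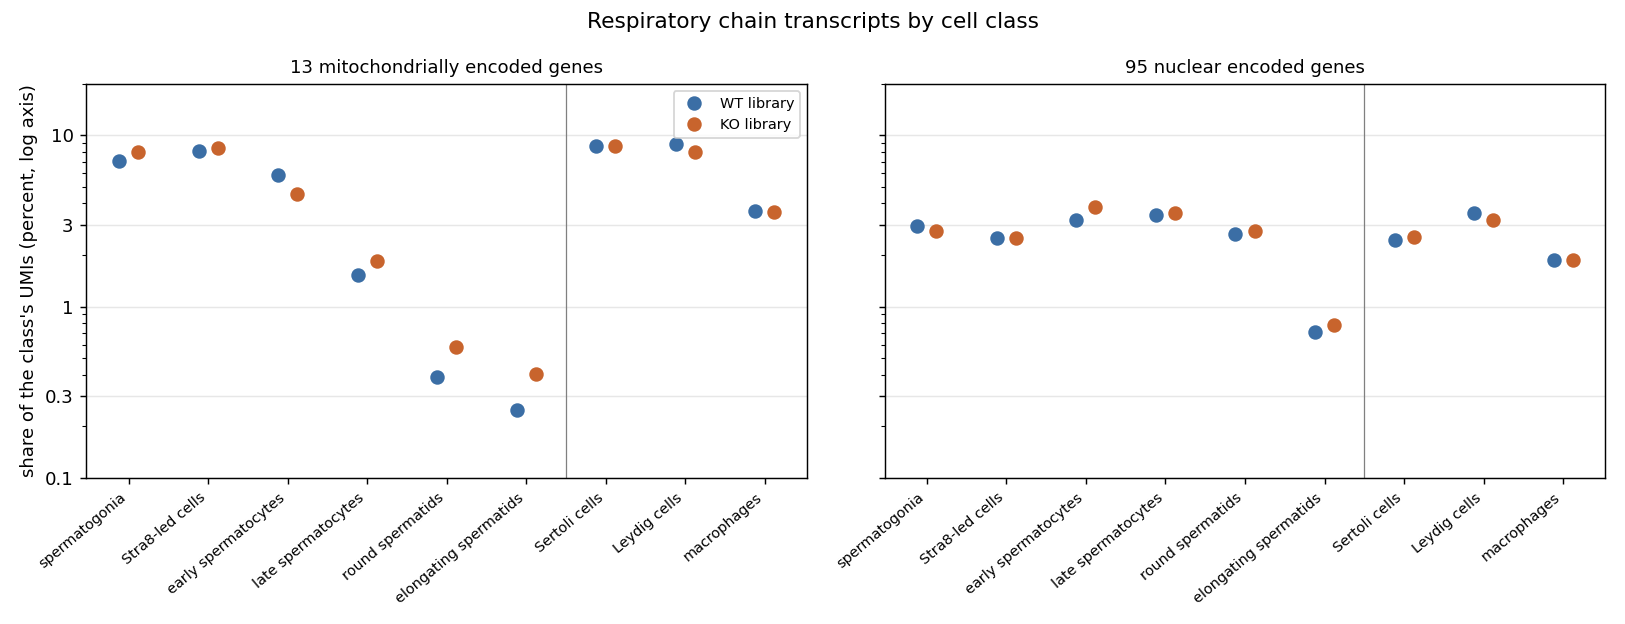
Share of each class's UMIs that came from the 13 mitochondrially encoded genes (left) and the 95 nuclear encoded members (right), in percent on a log axis, with 1 point per library and class. The left panel drops from 7.08% and 8.02% in spermatogonia to 0.248% and 0.405% in elongating spermatids, while the right panel stays between 2.52% and 3.79% from spermatogonia to late spermatocytes.

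Clusters within a class differed as well. Stra8-led cells joined a sub-cluster at 9.55% (WT) and 9.85% (KO) mitochondrially encoded UMIs with another at 7.14% and 7.37%. Late spermatocytes joined a cluster with Piwil1 among its leading genes, at 2.28% (WT) and 2.45% (KO) mitochondrially encoded UMIs, with a cluster led by Aurka at 1.25% and 1.48%. The former cluster scored higher for early spermatocyte markers (0.817) than for late ones (0.513). Round spermatids joined clusters at 0.481% and 0.636%, and at 0.188% and 0.350%. Per cell, the median mitochondrially encoded share was 1.26% in WT late spermatocytes and 0.277% in WT round spermatids, with quartiles of 1.01% to 1.64% and 0.143% to 0.583%. In KO the medians were 1.502% and 0.537%, with quartiles of 1.18% to 2.21% and 0.304% to 0.846%. Quartile ranges of the 2 stages did not overlap in either library.

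Among somatic cells, before free RNA was subtracted, Sertoli and Leydig cells had shares near those of spermatogonia and Stra8-led cells. Macrophages had lower ones. The mitochondrially encoded share was 8.65% in Sertoli cells of each library, the supporting cells of the tubule, 8.90% and 7.99% in Leydig cells, the steroid-making cells of the interstitium, and 3.62% and 3.56% in macrophages. Sertoli cells were shallow, with a median of 1307 UMIs in WT and 1731 in KO, and the free RNA measured in the 10% of barcodes with the fewest UMIs, if every droplet held as much, would have made up 60.0% and 62.6% of their UMIs. With that free RNA subtracted, the Sertoli share was 19.1% and 19.9%, no longer near the early germ cells. Spermatogonia were then at 8.00% and 9.61%, Stra8-led cells at 9.23% and 9.87%, and Leydig cells at 10.0% and 9.56%. The same subtraction left late spermatocytes at 1.52% and 1.83%, round spermatids at 0.347% and 0.504%, and elongating spermatids at 0.166% and 0.251%.

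Between neighbouring stages, a gene was counted as changed when it had at least 20 UMIs over the classes compared, differed by at least 1.5-fold in CPM, and had a 95% counting interval that left out no change, in both libraries with the same sign. From spermatogonia to late spermatocytes all 13 mitochondrially encoded genes fell, with log2 differences from -2.80 to -1.62 in WT and from -2.70 to -1.499 in KO. Among all 11465 genes measured in this contrast, 29.9% fell and 18.5% rose.

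mt-Cytb, the only mitochondrially encoded subunit of complex III, was at 8013 and 9020 CPM (WT, KO) in spermatogonia and at 1199 and 1419 CPM in late spermatocytes, with log2 differences of -2.74 and -2.67. mt-Co1, the catalytic subunit of complex IV, was at 17580 and 18881 CPM against 3629 and 4357 CPM. mt-Co2, another core subunit of complex IV, had the smallest drop in WT, from 7653 to 2483 CPM, and went from 8732 to 2767 CPM in KO. In each of these genes both spermatogonial values lay above both late spermatocyte values.

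mt-Co3, the third core subunit of complex IV, was at 17566 and 20033 CPM in spermatogonia and 3905 and 4935 CPM in late spermatocytes. mt-Atp6, part of the proton channel of ATP synthase, was at 8776 and 10103 CPM against 1675 and 1904 CPM. The complex I subunit mt-Nd1 was at 5537 and 6414 CPM against 1004 and 1291 CPM. The log2 differences of mt-Nd2, mt-Nd3, mt-Nd4, mt-Nd4l, mt-Nd5 and mt-Nd6, the other complex I subunits of this genome, ran from -2.55 to -1.77 in WT and from -2.35 to -1.499 in KO. mt-Nd6 is the one member encoded on the other strand of the mitochondrial DNA, and it rested on only 25 and 15 UMIs in spermatogonia. mt-Atp8 overlaps mt-Atp6, and mt-Nd4l overlaps mt-Nd4, so reads of each of these pairs cannot be told apart with certainty. The difference was -2.80 and -2.70 for mt-Atp8.

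All 13 fell again from late spermatocytes to round spermatids, where 35.4% of 12700 genes fell and 24.7% rose. mt-Nd3 was at 79.5 and 117 CPM in late spermatocytes and at 17.3 and 30.3 CPM in round spermatids, a log2 difference of -2.20 in WT and -1.95 in KO. mt-Co1 was at 891 and 1367 CPM in round spermatids, with -2.03 and -1.67. mt-Atp8 differed least, by -1.22 in WT and -0.96 in KO. The summed share of the 13 differed by -1.97 in WT and -1.65 in KO, a mean of -1.81. From round to elongating spermatids 65.7% of 12452 genes fell, and the median gene was at -1.57 on the log2 scale. Only mt-Co1, mt-Co2, mt-Nd4, mt-Nd4l and mt-Nd5 passed there, and the median of the 13 was -0.54. CPM are relative to all UMIs of a class, and scaling by the median ratio over genes instead shifts this step by -1.54. On that scale the 13 genes stood higher, not lower, in elongating than in round spermatids. The same shift was -0.59 from spermatogonia to late spermatocytes and -0.31 into round spermatids, smaller than the drop of any of the 13 genes. On the CPM scale the mitochondrially encoded genes differed less than the median gene in that step, and more than it in the previous ones: their median was -2.20 against -0.34 from spermatogonia to late spermatocytes, and -1.71 against -0.36 into round spermatids.

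**Figure D2:**
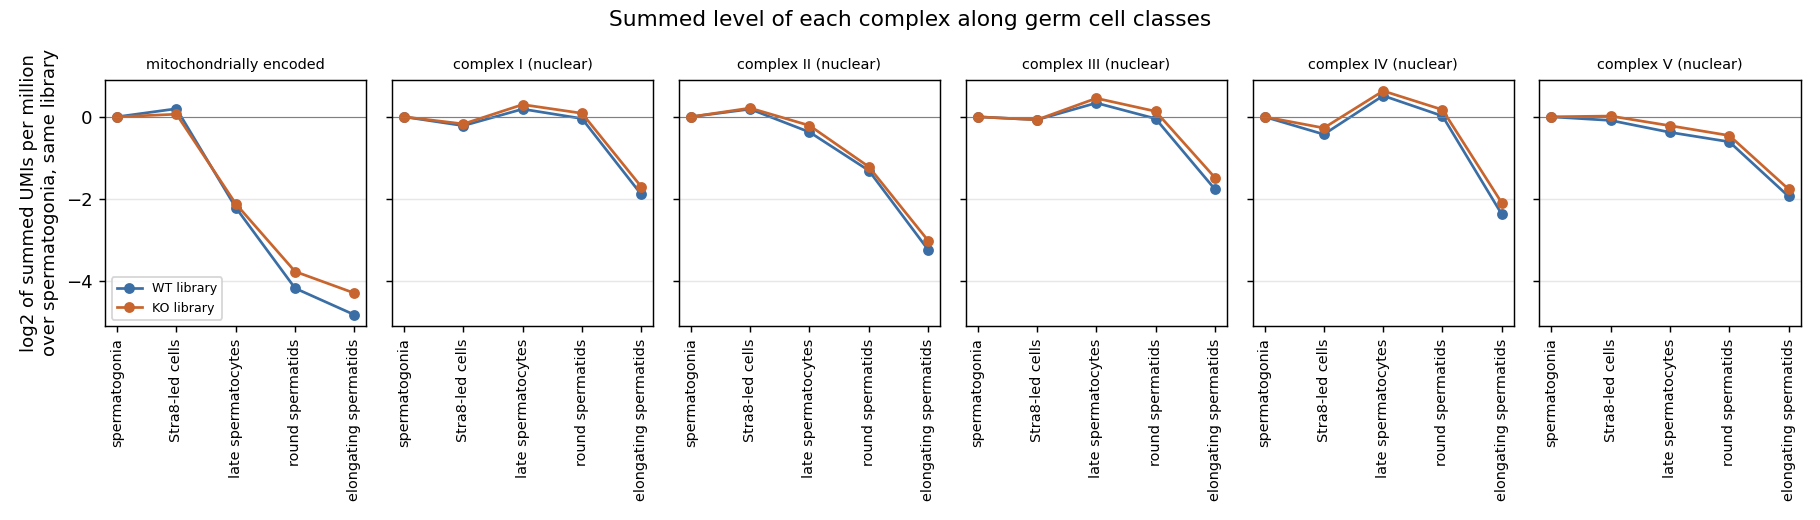
Summed CPM of the mitochondrially encoded genes and of the nuclear encoded subunits of each complex, as log2 over spermatogonia of the same library, along 5 germ cell groups. Only the first panel is down at late spermatocytes by more than 2 in both libraries, and of the 5 nuclear panels complex II is lowest in round and elongating spermatids.

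The nuclear subunits of a complex did not move as a block. From spermatogonia to late spermatocytes 21 of 89 measured nuclear members rose and 22 fell, shares of the same order as over all genes. Counted from Stra8-led cells to late spermatocytes, 27 nuclear members rose and 22 fell, and all 13 mitochondrially encoded genes fell, beside 18.6% of 11478 genes up and 32.6% down. From late spermatocytes to round spermatids 25 of 89 fell and 3 rose, both shares below the background of 35.4% down and 24.7% up. From round to elongating spermatids 83 fell and 1 rose, beside background shares of 65.7% down and 13.2% up. Summed over its nuclear subunits, complex IV was at 8755 and 8162 CPM (WT, KO) in spermatogonia, 12519 and 12651 in late spermatocytes, 8878 and 9203 in round spermatids and 1681 and 1901 in elongating spermatids. Complex I went from 9062 and 8559 to 10333 and 10527, then to 8794 and 9089, and to 2434 and 2620. Complex V was at 6765 and 6317, 5203 and 5434, 4431 and 4602, and 1757 and 1853 CPM in the same order. Complex III was at 3217 and 3119, 4068 and 4271, 3118 and 3422, and 943 and 1114 CPM. Complexes I, III and IV were thus higher in late spermatocytes than in spermatogonia and round spermatids, and complex V was lower in late spermatocytes than in spermatogonia. In the few early spermatocytes complex IV was at 10711 and 14392 CPM, complex I at 9868 and 10787 CPM and complex V at 6775 and 6784 CPM.

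Complex II, which has no mitochondrially encoded subunit, was at 381 and 351 CPM in spermatogonia, 295 and 303 in late spermatocytes, 154 and 151 in round spermatids and 40.2 and 43.2 in elongating spermatids. Sdhd, a membrane anchor of the complex, was at 30.2 and 21.6 CPM in late spermatocytes and at 3.08 and 2.80 CPM in round spermatids. Its log2 differences of -3.29 and -2.95 were the largest drop of any member in that step when members were ranked by the smaller of both libraries' changes. Sdhc, the other anchor, went from 46.4 and 52.6 to 8.67 and 9.74 CPM, with -2.42 and -2.43. Sdha, the flavoprotein, went from 64.7 and 74.4 to 28.3 and 26.2 CPM and also fell. Sdhb, the iron-sulfur subunit, was at 153 and 154 CPM and then at 114 and 112 CPM, which did not pass. After Sdhd and Sdhc, the next named drops into round spermatids were Ndufc2 of complex I, with -2.52 and -2.13, Uqcrc2, a core protein of complex III, with -2.09 and -2.16, and mt-Nd3. mt-Nd6, at -1.49 and -2.95, had 51 and 8 UMIs in round spermatids.

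The 3 members that rose from late spermatocytes to round spermatids were Atp5g1, Ndufb11 and Cycs. Atp5g1, which encodes a copy of the membrane ring subunit of ATP synthase, was at 173 and 205 CPM and then at 387 and 417 CPM. Ndufb11 was at 4.08 and 5.68 and then at 8.24 and 12.01 CPM, and Cycs at 5.87 and 8.52 and then at 13.8 and 15.7 CPM. All were still below their spermatogonial values. Ndufb11 and Cycs did not pass in both libraries when classes were assigned cell by cell from markers. In elongating spermatids the only member to rise was Ndufa13, a complex I subunit, from 170 and 167 to 439 and 485 CPM, log2 differences of 1.36 and 1.54. Uqcrq of complex III was the highest nuclear member there, at 593 and 724 CPM, while Cox7b2, Ndufa6, Atp5d, Cox6c and Cox7c had the largest drops, of -3.32, -3.13, -3.03, -3.14 and -3.20 in WT and -3.19, -3.08, -3.09, -2.90 and -2.88 in KO.

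**Figure D3:**
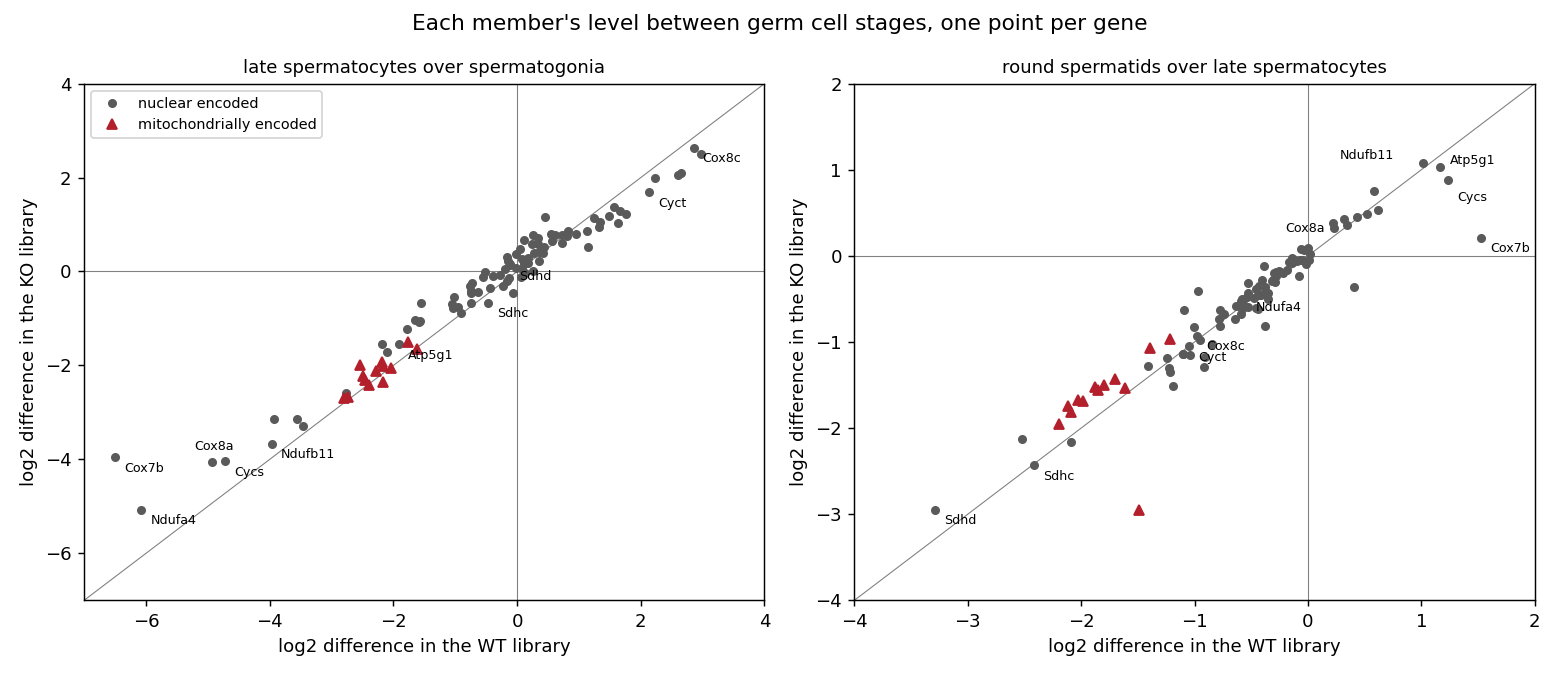
Log2 difference of each member between germ cell stages in the WT library (horizontal) and the KO library (vertical), with the line of equal values, triangles for mitochondrially and circles for nuclear encoded genes. All triangles lie below 0 on both axes in both panels, whereas the circles of the left panel lie on both sides of 0, with Ndufa4 at -6.08 and -5.07 and Cox8c at 2.85 and 2.63.

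At both ends of the nuclear range stood pairs of related genes that changed in opposite directions. From spermatogonia to late spermatocytes the largest rises that passed in both libraries were Cox8c, Ndufaf3, Ndufa4l2, Cox6b2 and Cox7b2, and the largest drops were Ndufa4, Cox8a, Cycs, Cox7b and Ndufb11. Cyct rose as well. Ndufaf3, an assembly factor of complex I, has no partner among the pairs compared here. It was at 92.7 and 143 CPM and then at 730 and 805 CPM.

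Cyct and Cycs encode testis and somatic cytochrome c. Cyct had 43 and 35 UMIs (56.2 and 76.8 CPM) in spermatogonia and 8557 and 1828 UMIs (248 and 247 CPM) in late spermatocytes. Cycs had 119 and 64 UMIs (155 and 140 CPM) and then 203 and 63 UMIs (5.87 and 8.52 CPM). Cyct thus held 26.5% of the pair's UMIs in WT spermatogonia (95% exact Clopper-Pearson interval 19.9 to 34.0) and 35.4% in KO (26.0 to 45.6). It held 65.3% (53.1 to 76.1) and 95.5% (77.2 to 99.9, 22 UMIs) in early spermatocytes, and 97.7% and 96.7% in late spermatocytes. In round spermatids the share was 89.7% (88.6 to 90.7) and 88.4% (86.2 to 90.3), and in elongating spermatids 85.8% and 78.2%. The intervals of late spermatocytes and round spermatids did not overlap within either library: the somatic form made up more of the pair in round spermatids.

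The promoters of that pair are shown because the genes moved in opposite directions in the same cells. Each line gives the 250 bases before the annotated start site on the strand of the gene (RefSeq, GRCm38.p6), Cycs at chr6:50566570-50566819 and Cyct at chr2:76360454-76360703, both on the minus strand, and capitals mark a cyclic AMP response element (CRE, TGACGTCA).
Cycs: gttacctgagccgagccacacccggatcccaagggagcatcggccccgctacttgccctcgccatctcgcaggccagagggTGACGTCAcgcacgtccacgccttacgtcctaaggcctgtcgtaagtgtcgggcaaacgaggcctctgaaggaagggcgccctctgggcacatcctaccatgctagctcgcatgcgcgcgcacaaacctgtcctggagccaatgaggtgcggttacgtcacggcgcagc
Cyct: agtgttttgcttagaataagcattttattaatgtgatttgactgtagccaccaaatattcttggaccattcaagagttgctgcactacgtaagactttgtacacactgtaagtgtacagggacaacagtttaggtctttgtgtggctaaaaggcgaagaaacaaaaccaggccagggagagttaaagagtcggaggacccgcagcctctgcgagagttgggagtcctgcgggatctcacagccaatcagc
The Cycs window held a CRE and 23 CpG dinucleotides, with 64.0% G and C bases. The Cyct window held 6 CpG dinucleotides and 45.6% G and C, beside medians of 6 and 52.4% over 32851 promoter windows. Over all 27025 gene symbols with a window, 1.77% held the CRE on either strand, against 5 of the 76 nuclear member symbols with a window (Cycs, Ndufa10, Ndufa11, Ndufb2 and Uqcrfs1). The core recognised by NRF1, a regulator of respiratory genes (GCGC, any 2 bases, GCGC), occurred in 5.64% of all symbols and in 16 of the 76 members. Neither Cycs nor Cyct held the NRF1 letters in this window. Only exact matches were counted, so close variants, such as tcgcatgcgc in the Cycs window, were not. These 2 motifs were chosen with results of these data known, and a match describes the sequence only.

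Cox7b and Cox7b2, alternative forms of a small complex IV subunit, differ in the chromosome that carries them. Cox7b, on the X chromosome (X, 106015700 to 106022450, plus strand, GENCODE M21 on GRCm38), had 44 and 22 UMIs (57.5 and 48.3 CPM) in spermatogonia and 22 and 23 UMIs (0.637 and 3.11 CPM) in the far deeper late spermatocytes. Cox7b2, on chromosome 5, was at 192 and 228 CPM and then at 896 and 904 CPM, and held 99.9% and 99.7% of the pair in late spermatocytes. The promoters of the pair, chrX:106015450-106015699 on the plus strand and chr5:71548206-71548455 on the minus strand, held neither motif in the same window.
Cox7b: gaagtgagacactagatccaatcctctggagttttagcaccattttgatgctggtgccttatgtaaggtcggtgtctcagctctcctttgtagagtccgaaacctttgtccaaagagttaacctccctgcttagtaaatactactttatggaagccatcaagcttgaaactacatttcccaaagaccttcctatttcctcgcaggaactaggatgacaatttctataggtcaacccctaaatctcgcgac
Cox7b2: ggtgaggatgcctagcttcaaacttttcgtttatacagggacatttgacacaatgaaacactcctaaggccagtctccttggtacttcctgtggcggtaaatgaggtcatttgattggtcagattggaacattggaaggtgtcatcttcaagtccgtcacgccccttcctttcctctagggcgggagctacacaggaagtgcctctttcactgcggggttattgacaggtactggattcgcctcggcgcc
They had 43.6% and 50.4% G and C bases, with 5 and 9 CpG dinucleotides.

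The other X-linked members were also lower in late spermatocytes than in spermatogonia. Ndufb11 (X, 20615326 to 20617619, minus strand) was at 64.0 and 72.4 CPM in spermatogonia and 4.08 and 5.68 CPM in late spermatocytes, and Ndufa1 at 103 and 132 against 15.2 and 21.8 CPM. Ndufa1 had first risen in Stra8-led cells, to 323 and 245 CPM, the only member to do so. In the step from spermatogonia to Stra8-led cells 5 members fell (Cox8a, Ndufa7, Ndufs8, Atp5g1 and Cox7c), beside 2.25% of 7008 genes, and 6.24% of genes rose. Neither Ndufb11 nor Ndufa1 has a partner among the pairs compared here, in contrast to Cox7b. Of the 3 X-linked members only Ndufb11 passed as higher in round spermatids than in late spermatocytes in both libraries. Cox7b was at 1.84 and 3.60 CPM there and Ndufa1 at 11.6 and 12.4 CPM.

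Cox8c, Cox6b2 and Ndufa4l2 showed the same exchange with autosomal partners. Cox8a, the common form of the smallest complex IV subunit, was at 617 and 485 CPM in spermatogonia, 187 and 264 CPM in Stra8-led cells and 20.2 and 28.95 CPM in late spermatocytes. Cox8c was at 409 and 526 CPM, then 390 and 504 CPM, and then 2954 and 3261 CPM, the highest nuclear member of late spermatocytes. Its share of the pair was 39.9% and 52.1% in spermatogonia, 67.6% and 65.6% in Stra8-led cells, and 99.3% and 99.1% in late spermatocytes. Cox6b2 held 36.5% and 48.6% of its pair with Cox6b1 in spermatogonia and 97.5% in late spermatocytes of both libraries, where it stood at 1573 and 1555 CPM.

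Ndufa4l2, known from hypoxic cells, held 7.6% and 13.2% of its pair with Ndufa4 in spermatogonia and 97.2% and 95.6% in late spermatocytes. Ndufa4, a subunit assigned to complex IV and formerly to complex I, went from 430 and 318 CPM to 6.37 and 9.47 CPM, log2 differences of -6.08 and -5.07. Ndufa4l2 was at 35.3 and 48.3 CPM and then at 223 and 207 CPM, so the summed level of this pair was lower in late spermatocytes, at 229 and 216 CPM against 465 and 366 CPM. In the pair Cox8a and Cox8c the rising gene gained more CPM than the other lost.

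The remaining alternative forms were hardly seen in the named classes, apart from Cox7a1 in Leydig cells. Over all kept barcodes Cox4i2 had 4 UMIs in WT and 117 in KO, so most of its KO UMIs lay outside the named classes. Cox8b had 0 UMIs in all 6 germ cell groups and in Sertoli cells, and 1 UMI in KO Leydig cells. Cox4i2 had at most 2 UMIs and Cox6a2 at most 9 in any named class of either library, against 39801 UMIs of Cox4i1 and 9506 of Cox6a1 in WT late spermatocytes. Cox7a1, the muscle and heart form, held 14.7% and 6.7% of its pair with Cox7a2 in Leydig cells, 1.8% and 3.0% in Sertoli cells and at most 1.6% in any germ cell group. Of the 95 nuclear members, 89 had at least 20 UMIs in late spermatocytes of both libraries.

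**Figure D4:**
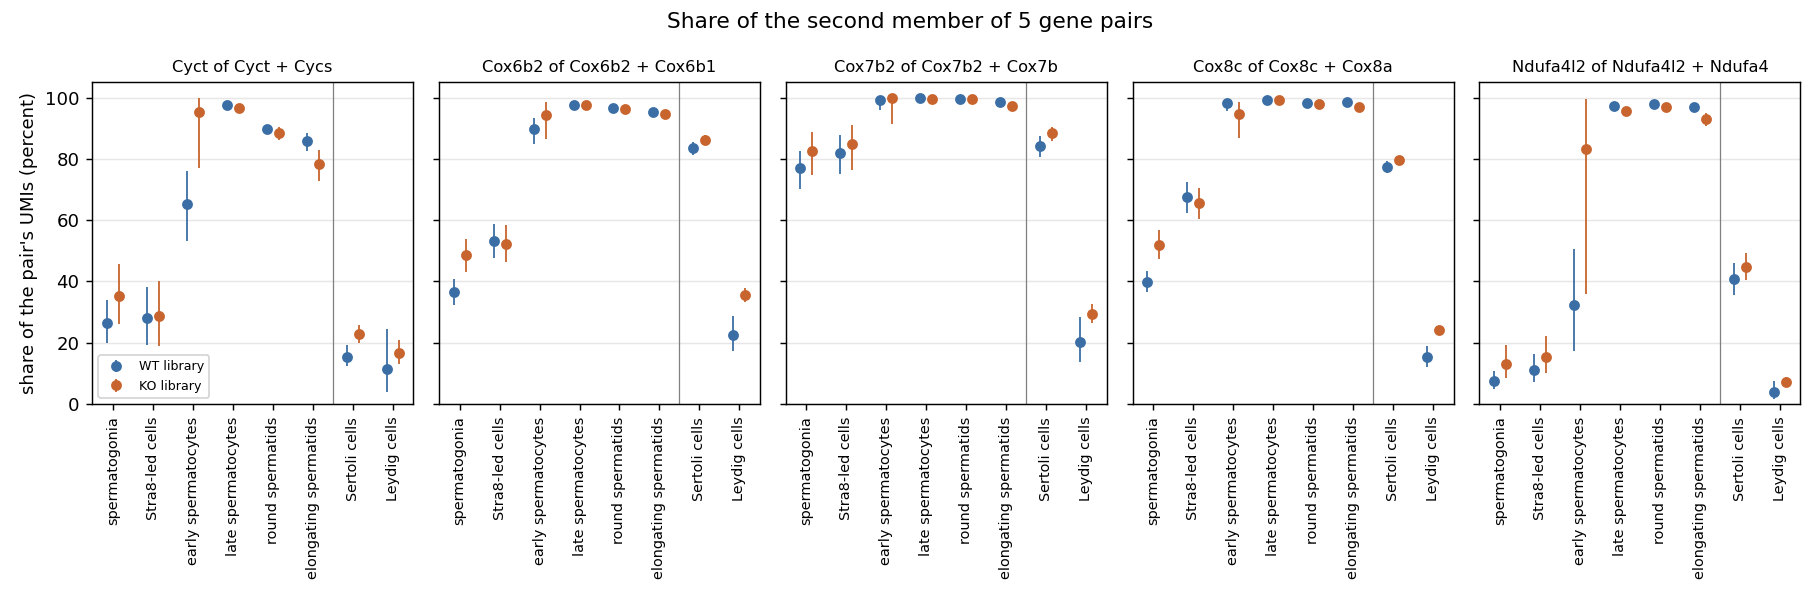
Share of the second gene in 5 pairs, in percent of the pair's UMIs, with exact 95% counting intervals, by class and library. Every pair exceeds 95% in late spermatocytes of both libraries, and the grey line separates germ cells from Sertoli and Leydig cells.

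The somatic shares of these germ cell forms were lower once free RNA was subtracted. Cyct held 15.5% and 22.8% of its pair in Sertoli cells and 11.4% and 16.7% in Leydig cells, while the same share in droplets resembling empty ones was 89.7% and 83.6%. With free RNA subtracted, Sertoli cells were at 0 and 9.7% and Leydig cells at 0.7% and 4.9%. In Leydig cells the subtracted shares of Cox6b2, Cox7b2, Cox8c and Ndufa4l2 lay between 0.7% and 10.8%. In Sertoli cells they lay between 16.4% and 71.9%. Spermatogonial shares also moved, to 20.4% and 29.4% for Cyct and 21.6% and 29.3% for Cox6b2, whereas late spermatocytes stayed at 95.9% or more in the 5 pairs. Levels are not divided by transcript length, since a UMI stands for 1 captured molecule. By UMIs, Cycs held the majority of its pair in spermatogonia. Division by annotated exon bases, which would suit counts that grow with length, gave Cyct 65.3% and 74.0% in spermatogonia. It gave Cyct 99.5% and 99.3% in late spermatocytes, so the direction of the exchange was the same.

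Leydig cells were the somatic class with the most members above all other classes compared, 29 in both libraries. A lead needed neither a fold nor an interval, and the smallest, of mt-Co1 in KO, was 0.05 on the log2 scale. The share of all genes leading in a class was not computed, so these counts cannot be read as particular to the members. The largest leads were Atp5g3, at 686 and 488 CPM against 212 and 136 CPM in spermatogonia, Ndufb11, at 483 and 387 CPM, and Cox7b, at 326 and 251 CPM. In Sertoli cells 4 members led. Cycs did so at 310 and 322 CPM against 155 and 140 CPM in spermatogonia, and mt-Nd1, mt-Co2 and mt-Co3 led by at most 0.28 on the log2 scale. Against late spermatocytes, Sertoli cells had 13 mitochondrially and 13 nuclear encoded members higher and 24 nuclear members lower, beside 26.4% and 24.4% of 12080 genes.

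Most of the counted differences between the genotypes lay in spermatids, where mitochondrially encoded genes were higher in KO. A KO over WT difference was counted when the gene had at least 20 UMIs in the class over both libraries, the CPM differed at least 1.5-fold and the 95% interval left out no change. Over the 6 classes with at least 50 cells in each library this gave 32 counts of a member higher in KO and 3 of a member lower. In elongating spermatids 18 of 102 measured members were higher, 11 of them mitochondrially encoded, beside 7.33% of 13122 genes, and none was lower, beside 0.975%. In round spermatids 7 were higher, 5 of them mitochondrially encoded, beside 3.71% of 14072 genes, and none lower, beside 2.74%. In late spermatocytes 1 was higher, beside 5.36% of genes, and none lower, beside 2.69%. Taken per gene, the median KO over WT log2 difference of the 13 mitochondrially encoded genes was 0.72 in elongating and 0.55 in round spermatids and 0.26 in late spermatocytes, against 0.10, 0.01 and 0.03 over all genes.

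mt-Co3 was at 641 CPM in WT and 1061 CPM in KO elongating spermatids (20510 and 13449 UMIs), a log2 difference of 0.73 (0.70 to 0.76). mt-Co1 was at 508 and 874 CPM, a difference of 0.78 (0.75 to 0.82), and mt-Nd1 at 185 and 323 CPM, 0.80 (0.74 to 0.86). mt-Nd2, mt-Nd3, mt-Nd4, mt-Nd5, mt-Nd6, mt-Cytb, mt-Atp6 and mt-Atp8 were higher by 0.66 to 0.84. mt-Co2 and mt-Nd4l did not reach the fold, with 0.53 and 0.39. In round spermatids mt-Nd3 was at 17.3 and 30.3 CPM, a difference of 0.81 (0.57 to 1.04), and mt-Nd2, mt-Nd1, mt-Co3 and mt-Co1 were higher by 0.80, 0.74, 0.63 and 0.62. mt-Nd6 alone had a negative difference there, -0.90, with an interval of -2.19 to 0.19 that held no change. In late spermatocytes the 13 differences ran from 0.06 to 0.56, and none reached the fold.

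Summed, the 13 genes were higher in KO by 0.27 (0.26 to 0.28) on the log2 scale in late spermatocytes, 0.59 in round and 0.71 in elongating spermatids, by 0.18 in spermatogonia and 0.04 in Stra8-led cells, and by 0.00 (-0.01 to 0.01) in Sertoli cells. The nuclear members, summed, were at -0.09, 0.00, 0.04, 0.06, 0.13 and 0.06 in spermatogonia, Stra8-led cells, late spermatocytes, round spermatids, elongating spermatids and Sertoli cells. Several of these sums moved with the processing. With classes assigned cell by cell from markers, the mitochondrially encoded difference was 1.03 in round and 0.64 in elongating spermatids, so the order of these stages turned, and 16 members (12 mitochondrially encoded) were higher in round spermatids. The same assignment gave -0.85 in Sertoli cells, 6.65% in WT against 3.69% in KO, with 16 members lower and 0 higher. Sertoli barcodes with at least 2000 UMIs gave -0.13. In spermatogonia the difference was 0.05 with a mitochondrial limit of 10%. Whether these classes differ from each other in the genotype difference could not be tested with 1 library per genotype. Within each of the 7 clusters of late spermatocytes and spermatids the KO share was above the WT share, from 2.45% against 2.28% in the cluster with Piwil1 to 0.350% against 0.188% in the smaller round spermatid cluster.

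Leydig marker RNA was higher in KO spermatids, and also in KO classes with little or no mitochondrially encoded difference. The summed level of 10 Leydig markers was 12.6 CPM in WT and 130 CPM in KO round spermatids, and 17.0 and 131 CPM in elongating spermatids. Of these 10, 1 marker was at 0 in WT round spermatids and none was at 0 in KO. The same sum was 59.1 CPM in WT and 617 CPM in KO Sertoli cells, and 31.9 and 342 CPM in Stra8-led cells. The 16 Sertoli markers summed to 51.9 and 126 CPM in round and 37.9 and 119 CPM in elongating spermatids. The part of such RNA in the mitochondrially encoded difference was not tested beyond the subtraction of free RNA, after which the summed difference was 0.54 in round and 0.60 in elongating spermatids. Counts of members changed more: 3 were then higher and 1 lower in round spermatids, beside 3.18% and 3.94% of genes. In elongating spermatids 8 were higher and 2 lower, beside 4.11% and 8.74% of genes. In round spermatids mt-Co1, mt-Co3 and Cox7b no longer passed, at 0.56, 0.58 and 0.78, and neither did Ndufa4, while mt-Nd1, mt-Nd2 and mt-Nd3 did.

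**Figure D5:**
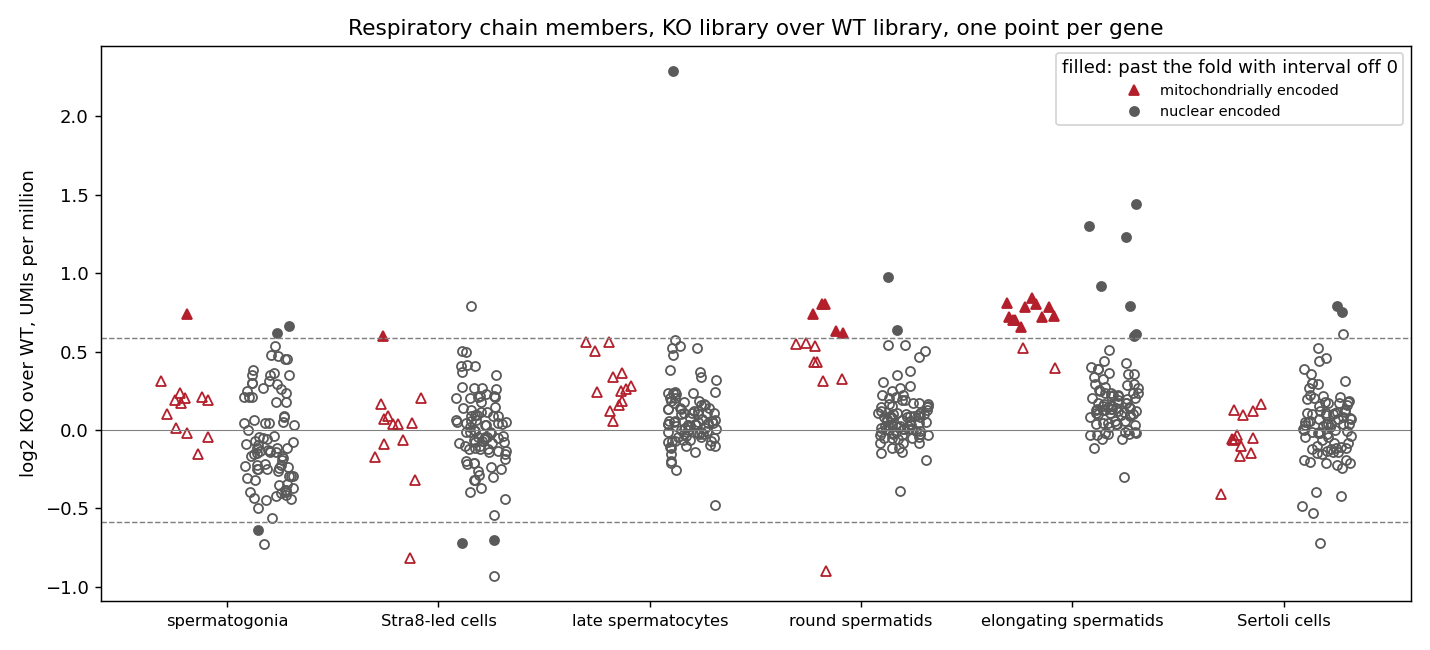
Log2 difference in CPM of each measured member between the KO and WT libraries in 6 classes, with dashed lines at 1.5-fold and filled marks for members that passed the count. In elongating spermatids 11 of the 13 triangles (mitochondrially encoded) are filled, and in Sertoli cells none is.

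In elongating spermatids 7 of 89 measured nuclear members were higher in KO, beside 7.33% of all genes, so their share was near that of all genes. Of these 7 nuclear members, 6 had fallen from spermatogonia to late spermatocytes in both libraries, and Sdhc had not. They were Cox8a, at 3.69 CPM in WT and 10.0 CPM in KO (118 and 127 UMIs, log2 difference 1.44, 1.07 to 1.82), Ndufa4 (1.34 and 3.31 CPM), Cox7b (0.875 and 2.05 CPM, 28 and 26 UMIs), Cycs (2.50 and 4.74 CPM), Sdhc, Ndufa1 and Ndufb11. With free RNA subtracted only Cox8a (1.26) and Ndufa4 (1.07) still passed as higher, the other 5 did not, and the summed nuclear difference was -0.014 in place of 0.13. In round spermatids 2 of 89 nuclear members were higher in KO, Cox7b and Ndufa4, beside 3.71% of all genes. Neither passed with free RNA subtracted. In late spermatocytes the only member was Cox7b, with 22 UMIs in WT and 23 in KO, a difference of 2.29 (1.38 to 3.20). Each of these 7 genes was higher in KO Leydig cells than in any KO late germ cell class. Leydig cells led all other classes in 29 members, so high Leydig levels are not particular to these genes. Whether Leydig RNA had a part in these KO over WT differences was not tested beyond the subtraction of free RNA. Partner forms did not pass: Cyct was at 15.1 and 17.0 CPM and Cox8c at 257 and 302 CPM in elongating spermatids.

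Few members differed in the early germ cells. In spermatogonia 3 of 101 were higher in KO, mt-Nd3, Ndufa9 and Ndufaf3, beside 4.98% of 8015 genes, and 1 was lower, Atp5g3, beside 4.78%. In Stra8-led cells mt-Nd3 was higher, beside 2.85% of 7760 genes, and Ndufb3 and Uqcrc2 were lower, beside 3.49%. These shares were under the background. mt-Nd3 was at 359 and 599 CPM in spermatogonia (275 and 273 UMIs, log2 difference 0.74, 0.49 to 0.98) and at 470 and 712 CPM in Stra8-led cells (0.60, 0.37 to 0.83). It was the only member counted as higher in both. With a mitochondrial limit of 10% neither passed, at 0.40 and 0.53. In Stra8-led cells mt-Nd3 also did not pass with median-of-ratios scaling (0.58), equal cluster weights (0.56) or the top 5% of cells left out (0.57). In spermatogonia the 10 Leydig markers summed to 35.3 CPM in WT and 366 CPM in KO.

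Ndufa9 had 52 and 49 UMIs in spermatogonia and Ndufaf3 had 71 and 65. The sign of both turned when classes were assigned cell by cell from markers, to -0.11 and -0.63. Atp5g3, another gene of the ring subunit of ATP synthase, had 162 and 62 UMIs, a log2 difference of -0.64 (-1.08 to -0.21), and did not pass with single-cell marker classes (-0.50) or equal cluster weights (-0.40). In Sertoli cells Cyct was higher in KO, with 71 and 180 UMIs (56.7 and 95.4 CPM), and so was Cox7a1, with 20 and 52 UMIs, beside 3.69% of 9874 genes. None was lower, beside 2.44%. The Cyct difference did not pass with single-cell marker classes (0.24), equal cluster weights (0.44) or no mitochondrial limit (0.56). Free RNA at the level of the barcodes with the fewest UMIs would give 87.4 (WT) and 118 (KO) Cyct UMIs in these Sertoli cells. That is above the whole WT count, so the Cyct difference has no finite value with free RNA subtracted. The Cox7a1 difference turned negative, at -0.06, in barcodes with at least 2000 UMIs.

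Other mitochondrial genes gave the surroundings of these changes. From spermatogonia to late spermatocytes, 8 lists of mitochondrial genes outside the respiratory chain moved unevenly. Of the regulators of mitochondrial biogenesis, 5 of 8 measured genes fell (among them Pprc1, Nfe2l2 and Nrf1) and 1 rose (Esrra), and the list's median was -1.48 against -0.37 over all genes, each taken over the means of both libraries. Of the genes for upkeep and transcription of mitochondrial DNA, 5 of 14 fell, among them Polrmt, the mitochondrial RNA polymerase, and Ssbp1, which binds single-stranded mitochondrial DNA, and 1 rose, Slirp, an RNA-binding stabiliser of mitochondrial messages. Polrmt was at 17.0 and 13.2 CPM in spermatogonia and 4.17 and 4.06 CPM in late spermatocytes, and Slirp at 84.9 and 151 CPM and then 329 and 280 CPM.

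Fatty acid oxidation had 6 of 12 genes lower, with Acadm, Echs1 and Etfa among them, and 2 higher. Carriers and import had 8 of 14 lower and 4 higher, the latter including Vdac2, an outer membrane channel, which went from 283 and 347 to 1304 and 1167 CPM. The citric acid cycle had 6 of 17 higher and 6 lower, assembly of complex IV 3 of 15 higher and 2 lower, assembly of complexes II, III and V 3 of 15 higher and 5 lower, and antioxidant defence 4 of 8 higher and 3 lower. Background shares for this contrast are those given above, 18.5% higher and 29.9% lower. Tfam, which packages mitochondrial DNA and was picked after its values were seen, was at 79.7 and 87.7 CPM in spermatogonia, 26.5 and 36.5 in late spermatocytes and 31.9 and 31.2 in round spermatids, and rose to 776 and 849 CPM in elongating spermatids. These counts are per gene, so transcript forms of Tfam cannot be told apart. Neither its protein nor mitochondrial DNA was measured.

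In late spermatocytes and elongating spermatids the genes counted in these lists were mostly higher in KO, and fatty acid oxidation held the largest share of them in late spermatocytes. In elongating spermatids 3 of 11 measured fatty acid oxidation genes, 4 of 16 carriers and import genes, 2 of 16 citric acid cycle genes and 2 of 14 genes of mitochondrial DNA upkeep were higher in KO and none was lower, beside 7.33% and 0.975% of all genes. Slc25a4, a somatic ADP/ATP carrier, was at 0.66 and 2.84 CPM (21 and 36 UMIs), while Slc25a31, the germ cell carrier, picked after its values were seen, was at 3.97 and 3.87 CPM. Acadl had 1 UMI in WT and 20 in KO, and Ssbp1 had 10 and 13. In late spermatocytes 6 of 15 fatty acid oxidation genes were higher and 1 lower (Cpt1b), beside 5.36% and 2.69% of all genes. The higher ones included Acadl, with 24 and 19 UMIs, and Echs1, with 26 and 20. These genes, too, had few UMIs in germ cells, beside the Leydig marker sums of 22.4 CPM in WT and 164 CPM in KO late spermatocytes. Whether such RNA had a part in the list differences was not tested.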

How the data were processed

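Members and gene lists were chosen with earlier results of these data known. Each library's deposited matrix lists unnormalized UMI counts for genes by barcodes, per the file headers. The submitters' processing notes name Cell Ranger 2.2.0, STAR and mm10, while the matrix headers name software version 3.1.0. Those sources do not state how multi-mapping reads and strand were handled, or which transcript end was read.

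Kept barcodes, 17002 (WT) and 17703 (KO), had 500 or more UMIs, 250 or more genes and no more than 20% mitochondrial UMIs. Together these limits removed 360 and 265 barcodes. Both libraries were clustered together with scanpy 1.11.5 (2000 variable genes, 30 components, 15 neighbours, Leiden resolution 1), leaving out all members and mitochondrial genes. Clusters were named from marker lists, those with raised protamine UMIs beside somatic markers were set aside as mixed, and no doublet caller was used. Libraries were not aligned to each other beforehand.

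Counts were summed per library and class and scaled to CPM. Ratios carry exact conditional binomial 95% intervals and shares exact Clopper-Pearson intervals (scipy 1.17.1). Differences were counted at 20 UMIs or more, 1.5-fold or more, and an interval off no change. UMIs were treated as independent counts, so intervals cover counting error only. Free RNA was taken from the 10% of barcodes with the fewest UMIs (1722 and 1776). Genes named by rule were the 13 mitochondrially encoded genes, the paralog sets, complex II, cytochrome c and X-linked members. Between germ stages up to 5 counted members per direction were added, ranked by the smaller of both libraries' ratios, and per somatic class up to 3 with the largest lead. In KO over WT the rule took up to 6 counted members per class and direction, ranked by the interval bound nearest to 0, and per gene list up to 3. Other named genes were chosen after their values were seen. Alternatives changed the barcode filters, the class assignment, scaling, weighting of clusters, free RNA and single cells of high depth. The scripts were tested on simulated counts. Gene positions are from GENCODE M21, and all 108 members matched. Of 94 nuclear symbols, 76 had a RefSeq promoter.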

Additional observations from a re-analysis of the deposited data

How the results depend on the processing

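There were 10 alternatives, and not each gave a value for every named difference. With classes assigned cell by cell from markers there were no Stra8-led cells. Of 22 named KO over WT differences, 12 kept their call under every alternative that gave a value, and 46 of 60 named differences between classes did. None of those 60 reversed, but the summed mitochondrially encoded genes from round to elongating spermatids, not among them, turned from lower to higher with median-of-ratios scaling. Classes assigned cell by cell from markers reversed Ndufaf3 (-0.63) and Ndufa9 (-0.11) in spermatogonia and Cox7a1 (-0.46) in Sertoli cells. Equal cluster weights reversed Ndufaf3 (-0.030) and Cox7a1 (-0.40), and barcodes with at least 2000 UMIs reversed Cox7a1 (-0.057). The count of members lower in KO, 3, became 8 with at least 2000 UMIs, 7 with a mitochondrial limit of 10%, 19 with classes from single-cell markers, 11 with free RNA subtracted, 15 with equal cluster weights, and 5 without the top 5% of cells or the top cell of each gene. The count higher in KO, 32, ranged from 22 to 43. With classes from single-cell markers both counts leave out Stra8-led cells.

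The log2 KO over WT difference of the mitochondrially encoded share in late spermatocytes, 0.27, was 0.34 with no mitochondrial limit, 0.25 with the 10% limit, without the top 5% of cells and without the top cell of each gene, 0.17 with single-cell markers, 0.24 with median-of-ratios scaling and 0.16 with equal weights. From late spermatocytes to round spermatids the share's difference, -1.81, was -1.40, -1.50 and -2.20 with single-cell markers, median-of-ratios scaling and equal weights. Nuclear members lower in that step, 25, numbered 15 with median-of-ratios scaling and 38 with equal weights. The cause of these shifts was not tested. No paired analysis was possible because each genotype had 1 library. The counting depth of spermatogonia and Stra8-led cells limits what their contrasts can show.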
